A study of Drosophila melanogaster with 3 samples.

Results

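The peaks described here are those of Pif1A-GFP on chromosome 4 of Drosophila melanogaster. They are the rows of the pooled dm6 peak list that lie on chromosome 4, 233 of 30000 peaks, and they were chosen by position alone. The other arms, X, 2L, 2R, 3L and 3R, held 29767 peaks of the same list. Each peak was placed by its summit, the base that the deposited list marks inside the peak.

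Chromosome 4 is the small dot chromosome of the fly. Much of it is packaged as heterochromatin, repeats such as INE-1 elements lie between and within its genes, and the proteins HP1a and POF coat it. Its genes are nevertheless expressed, and several encode regulators of development. Pif1A was named as a partner of a PFTAIRE cyclin-dependent kinase. The samples were whole pupae of mixed sex and unstated age from a transgenic line that carries GFP at the C terminus of Pif1A, and chromatin was recovered with an antibody to GFP. All 3 samples belong to this 1 group, Pif1A-GFP pupae, and are labelled biological replicates. Nothing in the labels says whether they came from separate sets of flies, so the spread between them may be technical. The replicates share a control, no untagged flies are among the samples, and whole pupae hold many cell types, so a peak cannot be assigned to a tissue. Fewer cells with the protein bound and less binding per cell cannot be told apart in such samples. The lists hold no read counts, and their depth is unknown.

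The 50 bases on each side of the summit are shown first for 6 of the higher-ranked chromosome 4 peaks. These windows hold no annotated UTR base, although a peak itself may reach one. They are printed on the plus strand, 5′ to 3′, from RefSeq Release 6 (dm6), in lower case. Capitals mark matches to any of 11 short motifs on either strand, whose letters are given with their counts further on. Those found in these windows are the core of the Pho site near Asator, the GAGA factor motif at zfh2 and the run of T in Sox102F.
gw, chr4:660066-660166: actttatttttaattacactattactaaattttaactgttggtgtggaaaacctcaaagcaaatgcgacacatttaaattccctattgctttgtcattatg
Sox102F promoter, chr4:807580-807680: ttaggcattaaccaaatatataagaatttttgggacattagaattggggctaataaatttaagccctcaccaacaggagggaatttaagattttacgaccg
Sox102F intron, chr4:830006-830106: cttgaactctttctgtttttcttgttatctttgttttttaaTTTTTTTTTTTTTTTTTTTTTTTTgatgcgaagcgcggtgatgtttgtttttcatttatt
near lncRNA:CR43437, chr4:424765-424865: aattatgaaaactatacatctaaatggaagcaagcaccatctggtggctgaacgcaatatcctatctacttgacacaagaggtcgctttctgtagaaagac
near Asator, chr4:489491-489591: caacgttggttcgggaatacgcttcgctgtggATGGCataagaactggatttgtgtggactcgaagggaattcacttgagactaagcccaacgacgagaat
zfh2, chr4:501666-501766: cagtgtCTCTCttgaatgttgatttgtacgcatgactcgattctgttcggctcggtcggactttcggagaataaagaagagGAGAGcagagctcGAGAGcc
None of the motifs was found in all 6. The GC content of these windows ran from 23.8% at the Sox102F intron to 49.5% at zfh2.

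Only 24 of the 233 chromosome 4 peaks (10.3%, exact 95% binomial interval 6.71 to 14.9) were in the optimal list, against 7259 of 29767 (24.4%, 23.9 to 24.9) on the other arms. The optimal list is what the authors' irreproducible discovery rate (IDR) procedure kept. Its 7283 peaks were the 7283 with the highest signal value in the pooled list, and it covered 24.3% of all pooled peaks. The intervals cover counting error only, and peaks of 1 list are not independent replicates. Signal value here means the height the authors deposited for each peak, and its scale depends on the list.

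The chromosome 4 peaks therefore sat low in the list. Their median rank was 20078, and their median signal value was 32.2, against 43.7 on the other arms. Of the 10 rank bins of 3000 peaks each, the highest 2 held 7 chromosome 4 peaks apiece (3.00%), and the lowest 2 held 34 (14.6%) and 40 (17.2%). On the other arms each bin held from 9.94% to 10.05% of the peaks. Such even values follow from the bins, because the other arms make up nearly the whole list.

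**Figure D1:**
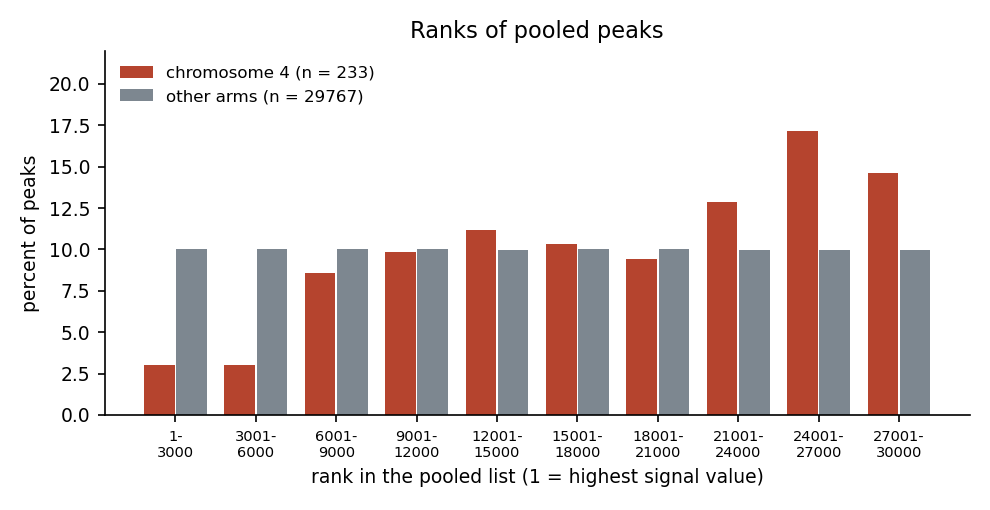
Percent of pooled peaks in 10 bins of rank, for the 233 peaks on chromosome 4 and the 29767 on the other arms. The chromosome 4 bars start at 3.00% in the highest-ranked bins and reach 17.2% in the bin of ranks 24001 to 27000. The bars of the other arms stay between 9.94% and 10.05%, which follows from their making up nearly the whole list.

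The same was measured in each replicate, taking its 7283 highest peaks to match the size of the optimal list. Of the chromosome 4 peaks, 25 of 252 (9.92%) were among them in replicate 1, 20 of 259 (7.72%) in replicate 2 and 20 of 236 (8.48%) in replicate 3. On the other arms the share was 24.4% in all 3. The means were 8.71% ± 1.12 on chromosome 4 and 24.4% ± 0.0252 on the other arms (SD, n = 3 replicates), a difference of -15.7 percentage points. The other arms together hold nearly all peaks of each list, so list size and the cut at 7283 nearly fix their value. Its SD therefore does not measure the spread between replicates. Each of the 5 other arms lay above chromosome 4 in each replicate. The two-sided exact sign-flip permutation test over 3 replicates gave p = 0.25, which is the smallest p the design allows. It did so for 9 of the 10 quantities tested over replicates (exact permutation p = 0.278 after Benjamini-Hochberg adjustment), so differences are read below against the spread between replicates. The replicates make up the pooled list, and so are not independent of it.

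**Figure D2:**
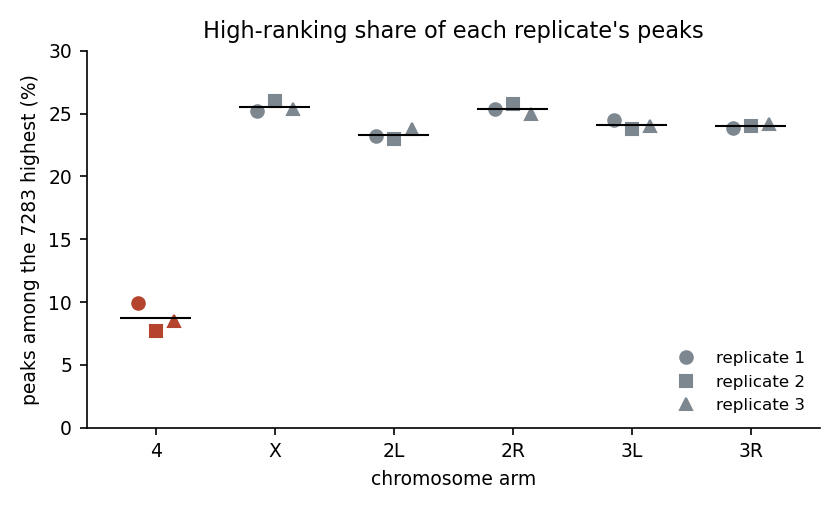
Percent of each replicate's peaks that were among its 7283 highest, by chromosome arm, with 1 symbol per replicate and a line at the mean. The 3 values of chromosome 4 lie between 7.72% and 9.92%, and all values of the other arms lie above them.

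Peaks were also sparser per length of chromosome. Chromosome 4 held 172.8 pooled peaks per Mb, against 224.6 per Mb on the other arms, and 17.8 optimal peaks per Mb, against 54.8. In the replicates the 7283 highest peaks gave 16.1 ± 2.14 per Mb on chromosome 4 and 54.8 ± 0.0693 per Mb on the other arms (SD, n = 3). The whole replicate lists gave 184.7 ± 8.71 per Mb on chromosome 4 and 224.4 ± 0.153 per Mb on the other arms. For the whole lists, 4 of the 5 other arms were above chromosome 4 in all 3 replicates.

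Transposable elements cover 24.8% of chromosome 4 and 5.74% of the other arms in the Ensembl annotation. No source used here says how reads with several placements were handled, and the part this plays in such sequence was not tested. Outside annotated elements, chromosome 4 held 22.7 optimal peaks per Mb, against 58.0 on the other arms. All pooled peaks there numbered 201.2 per Mb, against 237.3 on the other arms and 204.3 on 2R, the lowest of them. The whole lists of replicates 1, 2 and 3 gave 224.8, 222.8 and 200.2 per Mb there. On the other arms they gave 237.0, 237.0 and 237.3, so the whole lists lay closer together than the highest peaks did. The share of replicate peaks among the 7283 highest was 9.74% ± 0.845 on chromosome 4 and 24.4% ± 0.0153 on the other arms there (SD, n = 3). The value of the other arms is again nearly fixed by list size. Outside the elements the difference was -14.7 percentage points, beside -15.7 over the whole chromosome.

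Along the chromosome the peaks ran from a first summit at 41927 to a last summit at 1268747, which is 79384 bp before the right end. The median gap between neighbouring summits was 1868 bp, against 1412 bp on the other arms. In bins of 100 kb, the most were 31 summits (from 1000001), 30 (from 500001) and 26 (from 400001). The longest gap between neighbouring summits was 68603 bp, between 737699 and 806302, and it spans most of bt, the gene of the muscle protein projectin, and all of MED26, a Mediator subunit gene. From 1300001 to the right end at 1348131 no peak was in the pooled list or in any of the 3 replicate lists, and 95.4% of that sequence is annotated as transposable elements. Optimal peaks were spread between 56314 and 1113367, and the longest gap between them was 178529 bp, from 225976 to 404505.

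Chromosome 4 peaks lay at transcription start sites (TSSs) more often than peaks elsewhere. Of the 233, 94 (40.3%, exact 95% interval 34.0 to 47.0) had a summit within 500 bp of a TSS, against 21.1% on the other arms and 21.3% of all pooled peaks. Introns held 76 (32.6%), against 49.3%, and intergenic sequence held 40 (17.2%), against 25.5%. The remaining 23 were 9 in 3′ UTRs, 9 in other exons, 4 in coding exons and 1 in a 5′ UTR. In the replicates the TSS share was 40.4% ± 3.36 on chromosome 4 and 23.0% ± 0.729 on the other arms (SD, n = 3). Among the 7283 highest peaks it was 60.0% ± 5.0, against 33.9% ± 2.41 on the other arms, and chromosome 4 was above each of the 5 other arms in each replicate. Sequence within 500 bp of a TSS makes up 10.2% of chromosome 4 and 13.4% of the other arms.

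Within every one of the 3 large classes, fewer chromosome 4 peaks were optimal. At TSSs the share was 14 of 94 (14.9%, exact interval 8.39 to 23.7), against 35.9% on the other arms. In introns it was 1 of 76 (1.32%, 0.0333 to 7.11), against 23.9%. In intergenic sequence it was 5 of 40 (12.5%, 4.19 to 26.8), against 17.3%, and that interval includes the value of the other arms. The 1 optimal intron peak is the one in Sox102F, a Sox-family transcription factor gene, whose summit lies in a run of T printed above.

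Chromosome 4 was lower than the other arms in these 3 classes in each replicate too. In introns 2 of 74, 1 of 81 and 1 of 67 chromosome 4 peaks were among the 7283 highest, a mean of 1.81% ± 0.784, against 23.3% ± 0.599 on the other arms (SD, n = 3). At TSSs the means were 12.9% ± 1.43 on chromosome 4 and 35.9% ± 1.37 on the other arms. In intergenic sequence they were 11.6% ± 1.58 and 17.4% ± 0.523. Counted per Mb of their own class, optimal intron summits numbered 1.76 on chromosome 4 and 67.0 on the other arms, whereas optimal TSS summits numbered 101.9 and 126.8. Pooled TSS summits numbered 684.2 per Mb of such sequence on chromosome 4 and 353.6 on the other arms. Pooled summits numbered 134.0 and 280.9 per Mb in introns, and 148.2 and 207.9 in intergenic sequence. Pooled peaks were thus denser on chromosome 4 at TSSs only, and optimal peaks were sparser there both at TSSs and in introns.

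**Figure D3:**
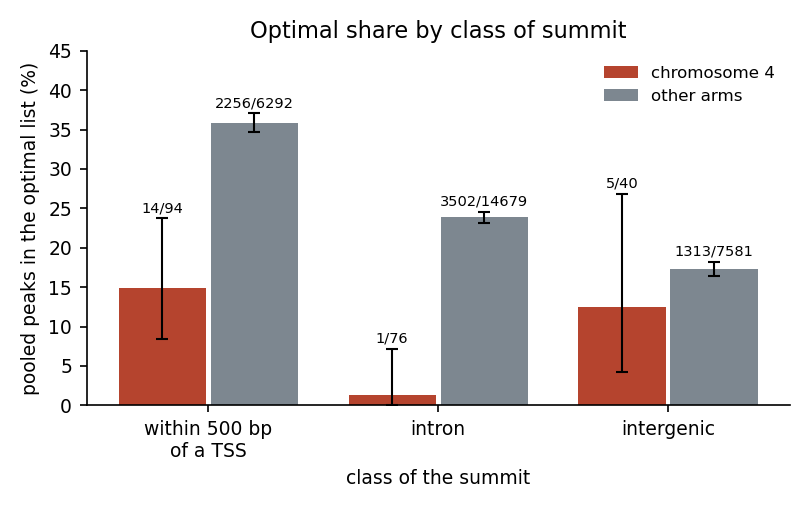
Percent of pooled peaks that were in the optimal list, by class of summit, for chromosome 4 and the other arms, with exact 95% binomial intervals and the counts above the bars. In each of the 3 classes drawn the chromosome 4 bar is the lower one, and in introns it stands at 1 of 76, against 3502 of 14679 on the other arms.

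The highest chromosome 4 peak was in the 3′ UTR of Cals, the fly calsyntenin gene, at chr4:1113187-1113496. Its pooled signal value was 661 at rank 259, and it ranked 305 in replicate 1, 295 in replicate 2 and 295 in replicate 3. The nearest TSS was 9598 bp away. The peak also reaches the 3′ end of sv, a Pax-family gene that ends at 1113317 on the opposite strand. Its ranks lay closer together than those of the other 20 optimal peaks matched in all 3 replicates.

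The next 2 peaks were nearly level in the pooled list. The gw peak, 133 bp from a TSS of the gene for GW182, which acts in microRNA-mediated silencing, had a signal value of 311 and ranked 1071, 1387 and 1336 in replicates 1, 2 and 3. The Sox102F promoter peak, 283 bp from a TSS, also had 311 and ranked 1643, 1087 and 1555. That TSS is an internal one, because the gene lies on the minus strand and its 5′ end is at 834393. A peak 183 bp from the 5′ end ranked 13460 in the pooled list and was not optimal. The Sox102F intron peak had 272 and ranked 1692, 1917 and 1664. It is 200 bp wide, where 229 of 233 chromosome 4 peaks are 424 bp wide, and its summit is soft-masked as repeat. The replicate ranks of these 3 peaks ran from 1071 to 1917.

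Among other optimal peaks at promoters, RpS3A, a ribosomal protein gene, had its summit 1 bp from the TSS, a signal value of 203 and ranks of 2461, 3827 and 2155. CaMKI, a calcium and calmodulin dependent kinase gene, had its summit 73 bp from the TSS, a signal value of 133 and ranks of 3957, 6605 and 4567. ATPsynbeta, which encodes a subunit of the mitochondrial ATP synthase, had ranks of 2730, 5817 and 9334, and the same peak lies at a TSS of CG11076. pan, which encodes the TCF factor of Wnt signalling, ranked 4709 in replicate 1 and 6583 in replicate 3. It had no summit within 100 bp in replicate 2, where an overlapping peak had its summit 112 bp away. zfh2, a zinc finger and homeodomain gene, ranked 3271 in replicate 1, 20346 in replicate 2 and 6247 in replicate 3. An overlapping replicate 2 peak with its summit 104 bp away ranked 10178.

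Away from promoters, 5 optimal peaks were intergenic. One lay 1252 bp from lncRNA:CR43437 and ranked 5609, 1911 and 2090 in replicates 1, 2 and 3. Another lay 547 bp from Asator, a kinase gene, and was only 107 bp wide. The one nearest to mir-9385 lay 3740 bp from it. The last 2 were 1804 bp and 4469 bp from fuss, a Ski/Sno-family gene, and the nearer of them lay in an INE-1 element. The 5′ UTR peak belonged to myo, which encodes the TGF-beta ligand myoglianin, and a second optimal peak lay 8 bp from a myo TSS.

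The lowest-ranked optimal peaks were less even between replicates. The peak in ci, the Hedgehog pathway transcription factor, 17 bp from its TSS, ranked 16334 in replicate 2 and 3607 in replicate 3, and had no summit within 100 bp in replicate 1, where an overlapping peak with its summit 121 bp away ranked 8215. The peak in an exon of lncRNA:CR43958 inside the span of Tdg, a thymine DNA glycosylase gene, was matched within 100 bp only in replicate 2, at rank 8801. Overlapping peaks ranked 3285 in replicate 1, with the summit 180 bp away, and 11363 in replicate 3, with the summit 101 bp away. The last of the 24 lay in an exon of asRNA:CR43957, 3127 bp from the nearest TSS of ci, with a signal value of 89.2 at rank 7132. The other optimal promoters were those of Asator, Ephrin and ND-49 (1 peak for both), anne, CG31999 and Pur-alpha. Counting only summits within 100 bp, 10 of the 24 optimal peaks were among the 7283 highest in all 3 replicates. A further 8 were in 2, 5 in 1 and 1, the Tdg peak, in none. The share in all 3 was 41.7% (exact interval 22.1 to 63.4), against 56.2% of optimal peaks on the other arms, which the interval includes.

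**Figure D4:**
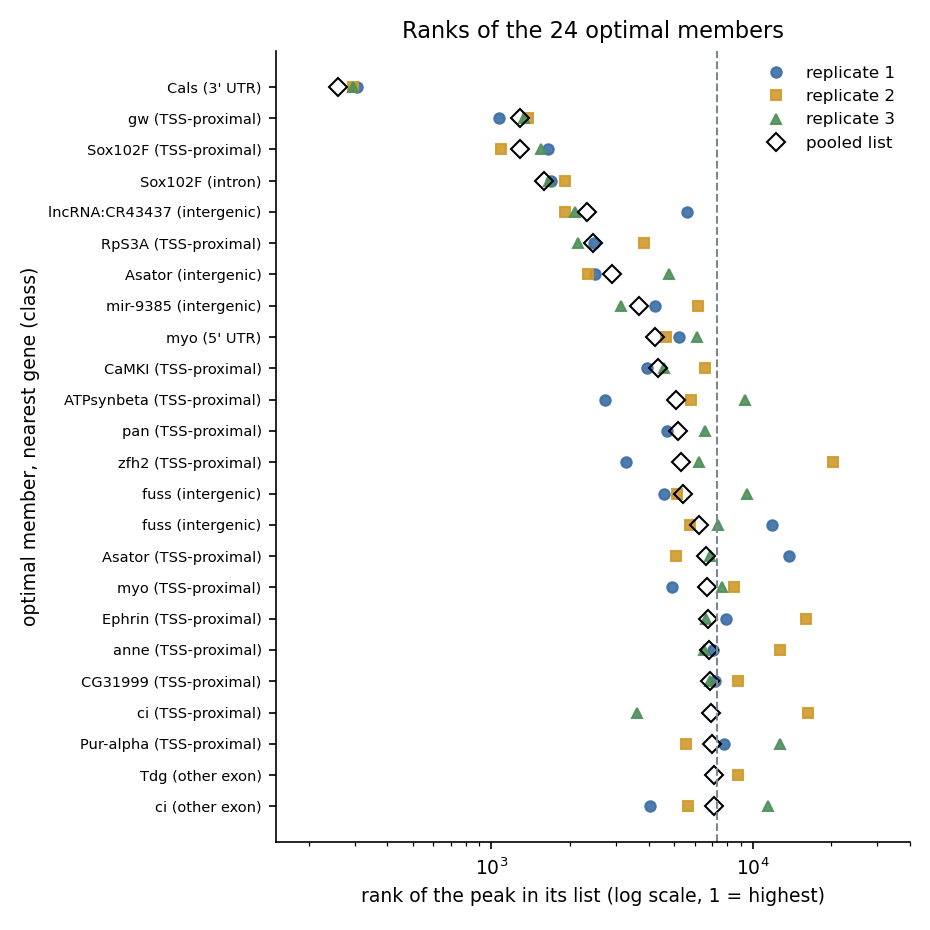
Ranks of the 24 optimal chromosome 4 peaks in the pooled list (diamonds) and in each replicate (filled symbols), on a log axis, with a missing symbol where no summit lay within 100 bp and a dashed line at rank 7283. Ranks are tight at the top, as at Cals (305, 295 and 295), and spread over the lower rows, as at zfh2 (3271, 20346 and 6247).

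The first peaks outside the optimal list lay near dati (signal value 87.0, rank 7341), apolpp, a lipid transport gene (85.2, rank 7511), and myo (84.9, rank 7550). The next 7 lay near PlexA, a semaphorin receptor gene, mir-9385, Mpv17, CG32017, Eph, the receptor for Ephrin, Asator and Sox102F, with ranks from 8228 to 8991. Of these 10, 7 were matched in all 3 replicates.

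Chromosome 4 peaks were found again in the replicates less often than other peaks. A summit within 100 bp was present in all 3 replicate lists for 44 of 233 (18.9%, exact 95% interval 14.1 to 24.5), against 35.6% on the other arms and 35.4% of all pooled peaks. Among optimal peaks the shares were 21 of 24 (87.5%) and 86.8%, and among the others 23 of 209 (11.0%) and 19.0%. Between pairs of replicates, a mean of 55.8% (44.0 to 70.0) of chromosome 4 peaks among the 7283 highest were matched among the 7283 highest of the other replicate, against 68.2% (66.5 to 69.3) on the other arms. Pairs share libraries, so these are given without a test.

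The question of how many genes carry a peak had a different answer from the question of how many peaks are high. Of the 80 protein-coding genes of chromosome 4, 16 (20.0%, exact 95% interval 11.9 to 30.4) had an optimal summit at a TSS, meaning within 500 bp. On the other arms 14.1% did, and 14.1% of all protein-coding genes did. Any pooled summit lay there for 56 of the 80 (70.0%, 58.7 to 79.7), against 28.1% on the other arms and 28.3% of all. With the 7283 highest peaks of each replicate, 16, 10 and 14 genes carried a peak. That is 16.7% ± 3.82 on chromosome 4 and 16.2% ± 0.953 on the other arms (SD, n = 3), a difference of 0.487 ± 3.32 percentage points (exact sign-flip permutation p = 1.00, lower on chromosome 4 in 1 of 3). Among genes with any pooled summit at a TSS, 16 of 56 (28.6%, 17.3 to 42.2) had an optimal one, against 50.1% on the other arms.

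Genes of chromosome 4 are longer, with a median of 10090 bp against 2156 bp, and sparser, 59.3 per Mb against 104.6. Genes with 1 annotated TSS had any pooled summit there in 57.1% on chromosome 4 and 19.8% on the other arms, and an optimal one in 9.52% and 8.41%. Genes with 2 or more TSSs had any in 84.2% and 51.0%, and an optimal one in 31.6% and 29.8%. For genes of 5 kb or more the optimal shares were 19.4% (12 of 62) and 29.3%, and for shorter genes 22.2% (4 of 18) and 9.08%. The optimal share of chromosome 4 was thus the lower one among longer genes and the higher one among shorter genes. The counts behind it are small, and a change with gene length was not tested. Any pooled summit lay at a TSS for 43 of the 62 longer genes (69.35%), against 55.35% on the other arms. For shorter genes it did for 13 of 18 (72.2%), against 19.1%. The share with any summit was thus higher on chromosome 4 in each group. The difference was smaller among longer genes, which are most of the genes of chromosome 4, than among shorter ones.

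**Figure D5:**
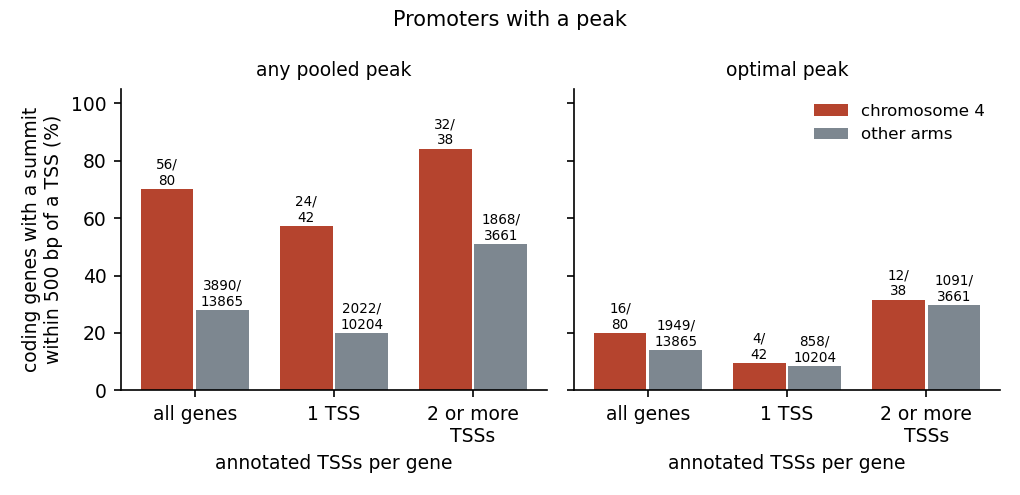
Percent of protein-coding genes with a pooled peak (left) or an optimal peak (right) within 500 bp of a TSS, for all genes and by number of annotated TSSs, on chromosome 4 and on the other arms, with counts above the bars. The chromosome 4 bars are higher for any pooled peak (56 of 80 against 3890 of 13865) and near those of the other arms for optimal peaks within the groups by TSS number.

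Of the transcription factors and cofactors on chromosome 4, 4 of 17 had an optimal summit at a TSS, namely ci, pan, zfh2 and Sox102F, and 9 had any. Hcf, a cofactor gene, and MED26 had none in the pooled list. Of the signalling genes, 4 of 16 had an optimal one, namely CaMKI, Asator, Ephrin and myo, and 13 had any. Crk and Dyrk3, an adaptor and a kinase gene, had none in the pooled list. Of 9 synaptic and ion transport genes, 0 had an optimal summit at a TSS and 5 had any, and Cals and Gat, a GABA transporter gene, were among those without. Of 6 translation and RNA genes, 3 had an optimal one (RpS3A, Pur-alpha and gw) and 5 had any, and Gyf had none. Of 10 mitochondrial, muscle and other genes, 2 had an optimal one (ND-49 and ATPsynbeta) and 8 had any, and JYalpha and yellow-h had none. These counts stand beside 16 of 80 (optimal) and 56 of 80 (any) for all protein-coding genes of the chromosome.

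RpS3A, CaMKI, gw and Sox102F, the last at its internal TSS, had a summit of the 7283 highest peaks at a TSS in all 3 replicates, and no other gene did. A total of 25 genes had one in at least 1 replicate, and 9 of these had no optimal summit, among them Crk, Hcf, Eph, ey and PlexA. Counted over gene bodies, zfh2 held 14 chromosome 4 peaks in 39065 bp, pan 10 in 44945 bp and Sox102F 9 in 33958 bp, and 26 of the 80 genes held none. Of the peaks inside zfh2, 0 were optimal. These are long genes, and per 10 kb zfh2 held 3.58 peaks, fewer than Zyx with 6.55. The counts over gene bodies were listed after their values were seen. They are given for chromosome 4 only, so they cannot be read as particular to it.

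Summits in annotated transposable elements numbered 29 of 233 (12.4%), against 0.393% on the other arms. They were 19 in INE-1, 6 in 1360 and 1 each in F, Fw2, Tc1 and mariner2, while the chromosome carries 344 INE-1 and 60 1360 elements. Of the 29, 1 was optimal (3.45%, exact interval 0.0873 to 17.8). That interval includes the 13.7% (16 of 117) for element summits on the other arms and the 10.3% for all chromosome 4 peaks. Elements thus held 12.4% of the peaks on 24.8% of the length of chromosome 4, against 0.393% of the peaks on 5.74% of the length of the other arms.

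The summits were searched on both strands for 12 motifs. The DRE, TATCGATA, which the factor DREF binds, was found within 50 bp of the summit in 5 of 233 chromosome 4 peaks (2.15%), against 0.377% of all 30000 pooled peaks. It was found in 0 of the 24 optimal ones, against 38 of 7259 (0.52%) on the other arms. At such a share, 0 of 24 does not show a lack of DREs. A DRE also contains CGATA, the BEAF-32 core, which was found in 14.2% of chromosome 4 peaks and 10.7% of all. GAGAG of the GAGA factor was found in 7.73% of chromosome 4 peaks and 13.2% of all, the Pho core GCCAT in 13.3% and 15.7%, runs of 8 T in 7.73% and 10.7%, CACACACA in 0.858% and 2.44%, and the Motif 1 core GGTCACAC in 0 peaks and 0.330%. The E-box CACGTG was found in 1.72% of chromosome 4 peaks and 0.877% of all, the nuclear receptor site AGGTCA in 2.58% and 1.76%, the Zelda core CAGGTA in 3.00% and 1.80%, the GATA site TGATAA in 7.73% and 8.00%, and TATAAA, which is not marked in the printed windows, in 21.0% and 18.1%. The 5 windows with a DRE are printed next because 3 of them lie in INE-1 elements, with TATCGATA and the CGATA core in capitals, from RefSeq Release 6 (dm6), plus strand, 5′ to 3′.
in lncRNA:CR46488, INE-1, chr4:180791-180891: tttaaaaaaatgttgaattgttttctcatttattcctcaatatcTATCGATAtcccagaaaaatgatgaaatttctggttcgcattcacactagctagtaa
near zfh2, INE-1, chr4:499158-499258: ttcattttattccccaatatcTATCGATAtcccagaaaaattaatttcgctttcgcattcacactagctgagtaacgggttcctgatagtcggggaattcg
sv intron, INE-1, chr4:1100525-1100625: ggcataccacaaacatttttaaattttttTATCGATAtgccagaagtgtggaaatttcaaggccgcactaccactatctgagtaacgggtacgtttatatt
near ey, chr4:696860-696960: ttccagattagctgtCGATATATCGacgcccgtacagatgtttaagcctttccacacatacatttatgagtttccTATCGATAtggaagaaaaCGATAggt
near toy, chr4:988314-988414: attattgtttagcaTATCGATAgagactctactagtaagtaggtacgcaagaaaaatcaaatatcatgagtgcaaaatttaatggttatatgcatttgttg
The windows at lncRNA:CR46488 and near zfh2 share an unbroken run of 27 letters, and every other pair shares at most 13. A DRE was found in 3 of 29 chromosome 4 summits inside transposable elements (10.3%), against 8 of 117 (6.84%) on the other arms. Outside elements it was found in 2 of 204 chromosome 4 summits (0.980%), against 0.337% on the other arms. Ranks of the 5 chromosome 4 peaks with a DRE ran from 12224 to 29324. A match of letters is a description and not a bound site.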

How the data were processed

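Peaks of anti-GFP ChIP-seq from 3 replicates were read from the deposited narrowPeak lists on dm6, with the dm3 lists as an alternative. By the submitters' deposited descriptions, each replicate list and the pooled one hold peaks plus background, made to feed IDR, with 1 control for all. No source used here names the IDR threshold, the peak caller, the aligner or how reads with several placements were handled. The authors deposited a signal value for each peak, used to rank peaks within a list, and a −log10 q-value, which 3657 pooled peaks share at its highest value and which served only as an alternative ranking. The lists hold no counts, so no depth could be given and no count model applied.

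Summits (1-based) were classed with Ensembl release 115, without transposable elements, pseudogenes and mature miRNA entries, first as within 500 bp of a TSS, then by UTR (5′ before coding, 3′ after it), remaining exon, intron or intergenic sequence. A peak was matched by the best-ranked summit within 100 bp. Shares have exact Clopper-Pearson 95% intervals. Differences over 3 replicates used two-sided exact sign-flip permutation tests, with chromosome 4 and the other arms paired within each replicate list, 10 in all with Benjamini-Hochberg adjustment. Python 3.11.15, pandas 2.3.3, scipy 1.17.1 and matplotlib 3.10.9 were used, and matching and tests were checked on simulated data.

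The genes named are those with a TSS within 500 bp of an optimal summit, those holding or nearest to each other optimal peak and the 10 highest other peaks, and up to 2 per role list without a summit at a TSS. Other names, gene groups by TSS number and length, class densities, tests within classes or outside elements, and the removal of mature miRNA entries were chosen after values were seen. All members and lists were chosen with earlier results of these data known.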

Additional observations from a re-analysis of the deposited data

How the results depend on the processing

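In the replicates, chromosome 4 had a lower share of high-ranking peaks, a lower density of them and a higher TSS share. Each kept its direction under every alternative run on it. For the TSS share these were only the omission of each replicate, which was run for all 3. The share of high-ranking peaks was also run with the dm3 lists, fewer and more of the highest peaks, q-value ranking and merged overlaps. Ranking by q-value left it nearly unchanged (-15.71 beside -15.69 percentage points), so it is hardly a separate check. The density was also run with unmasked sequence, whole lists and X alone. Added after the data were seen were single classes for the share and sequence outside elements for the share and the density. The optimal share of chromosome 4 was 3.00% with 3641 of the highest peaks in place of 7283 and 32.6% with 14566, against 12.2% and 48.7% on the other arms, which had 25.0% in the dm3 lists and 29.0% with overlapping peaks merged. Leaving out a replicate keeps only pooled peaks matched in the other 2, which changes the denominator: the optimal share was then 28.8% to 34.9% on chromosome 4 and 47.9% to 49.8% on the other arms, the TSS share 53.4% to 58.3%, the share of all members matched in the remaining 2 was 27.0% to 31.3%, and 14 to 15 genes kept an optimal summit. The TSS share was 26.2% within 200 bp, 51.5% within 1000 bp and 58.3% for optimal peaks. Of optimal peaks on the other arms, 31.1% lay within 500 bp of a TSS. The share matched in all 3 replicates was 10.7% within 50 bp, 33.5% within 200 bp, 33.5% by overlap of 50% of both lengths and 47.6% by 1 bp. Among the 7283 highest it was 4.29%, against 13.7% on the other arms. The other settings of these shares are given for chromosome 4 only. Genes with a summit at a TSS numbered 56 with all pooled peaks. The replicate tests were already paired, chromosome 4 with the other arms of the same list, and with 1 group there are no samples to pair between groups. Depth is unknown, 3 replicates cannot give a p under 0.25, and no untagged sample sets a background.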

Other observations

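For noncoding genes of chromosome 4 the counts are small. An optimal summit lay within 500 bp of a TSS for 1 of 27 (3.70%, exact 95% interval 0.0937 to 19.0), against 9.70% on the other arms, which the interval includes. Any pooled summit lay there for 11 of 27 (40.7%, 22.4 to 61.2), against 28.5%, which the interval also includes. The 1 with an optimal summit was asRNA:CR43957, which overlaps ci and shares its promoter peak.

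Of the chromosome 4 peaks in the replicate lists, 124 of 252, 131 of 259 and 118 of 236 had no pooled summit within 100 bp in replicates 1, 2 and 3. Of these, 1, 2 and 3 were matched in both other replicates, and 1, 0 and 1 were among the 7283 highest of their list. The same counts were not made on the other arms, so they cannot be read as particular to chromosome 4.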
